A study of Arabidopsis thaliana with 42 samples.

Results

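Warmth changes gene activity in Arabidopsis seedlings, and the comparison here asks how far that change differs between vil1 mutant plants and wild type (WT). For each gene the log2 change between 27 and 22 °C in WT was subtracted from the same change in vil1, so a positive difference means a warm response that was more positive, or less negative, in vil1. The comparison uses 8 RNA-seq libraries out of 42 samples in the series, 12 of which are RNA-seq. They form 4 groups of 2: vil1-1 plants at 27 °C, vil1-1 plants at 22 °C, Col-0 WT plants at 27 °C and Col-0 WT plants at 22 °C. All are whole seedlings of the Col-0 ecotype, 14 days old, and the mutant is represented by the single allele vil1-1. Both day lengths appear in the labels, and the one used for these RNA samples is not given there. The labels are also silent on whether a group's 2 libraries come from different cultures, and p-values therefore reflect the spread of these libraries alone, which may be technical.

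VIL1 (listed as VRN5) carries a PHD finger and works with Polycomb repressive complex 2 (PRC2), the enzyme complex that places the repressive mark H3K27me3 on histones. It is best known for the lasting silencing of the flowering repressor gene FLC after cold. Warm but not stressful temperature makes Arabidopsis seedlings elongate their stems and petioles, largely through the transcription factor PIF4 and auxin, and it also moves heat-shock, clock, pigment and defence genes. The submitters' design text raises the question of whether genes that warmth lowers in WT plants are also lowered in vil1.

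Depth was 58.6 to 86.9 M reads per library. Levels are in RPKM (reads per kilobase, corrected for sequencing depth), and log2 values are on the log2(RPKM + 1) scale, which understates the change of low genes. Replicates correlated at Pearson r 0.9871 in vil1 at 27 °C, 0.9887 in vil1 at 22 °C, 0.9843 in WT at 27 °C and 0.9804 in WT at 22 °C. The median absolute log2 difference between the replicates was 0.132, 0.093, 0.155 and 0.222 in the same order of groups, so the WT libraries at 22 °C were the least alike. VRN5 had 6.91 and 6.27 RPKM in vil1 at 27 °C, 5.13 and 5.38 RPKM in vil1 at 22 °C, 8.71 and 8.29 in WT at 27 °C and 6.71 and 6.67 in WT at 22 °C. Its RNA was thus present in every vil1 library and does not check the genotype, which rests on the labels. The difference of its warm responses was -0.03 (SE 0.14, 95% interval -0.34 to 0.28). ARP6, a subunit of the SWR1 complex that deposits the histone variant H2A.Z, had a difference of 0.01 (interval -0.34 to 0.35).

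No gene passed the test for a difference between the warm responses. Of 31229 features tested with limma, 0 (0.0%) had a Benjamini-Hochberg adjusted p under 0.05, and the smallest adjusted p was 0.245. At an unadjusted p under 0.05 there were 2858 features (9.15%), of which 1072 (3.43%) had a positive difference and 1786 (5.72%) a negative one. In 7603 features (24.3%) the warm responses did not overlap, meaning that every vil1 pairing of a 27 °C with a 22 °C library lay on one side of every WT pairing. These were 2909 (9.32%) on the positive side and 4694 (15.0%) on the negative side. The counts of single lists below are to be read against these shares.

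The number of calls rested on 1 library. Without replicate 1 of WT at 22 °C, 670 features (2.15%) passed the same threshold, 155 with a higher and 515 with a lower warm response in vil1, a fit in which the lone WT library at 22 °C is assumed to vary like the other groups. Leaving out any other library gave 0 or 1 calls. The voom method of limma on whole reads recovered from the RPKM values called 7 of 29654 features (0.0236%), 3 higher and 4 lower, and 2254 (7.6%), 648 higher and 1606 lower, without that same WT library. Among nuclear protein-coding genes alone 3 of 25300 (0.0119%) passed. The split of the positive and negative sides at an unadjusted p under 0.05 also moved with the scaling. It was 1679 positive to 1157 negative after quantile normalization, 2056 to 656 after centring each library on its median, and 1241 to 1165 after a trend with gene length was removed. The trend itself was a Spearman rho of -0.362 between the difference and gene length over 29670 features, a description across genes that share their libraries. Replicate 1 minus replicate 2 of WT at 22 °C had a rho of 0.336 with length and that of WT at 27 °C one of 0.329. The part of the trend in the single genes was not tested. Where a list's median is reported, that without the trend is added if it differs by more than 1.5 times. Leaving out single libraries moved the median of all features between -0.07 (without replicate 2 of WT at 22 °C) and 0.11 (without replicate 1 of WT at 22 °C). List medians moved as well, not all by the same amount or in the same direction. Without replicate 1 of WT at 22 °C that of the chlorophyll genes went from -0.40 to -0.54.

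Over all features the median difference was 0.02 and 90% of the values lay between -0.51 and 0.47. Warm responses of vil1 and WT, which share no library, had a Pearson r of 0.446 across features, with medians of 0.11 in vil1 and 0.09 in WT. A positive difference at an unadjusted p under 0.05 was mostly found where WT levels were lower at 27 °C: the WT response was negative for 986 of these 1072 features (92.0%). A negative difference was mostly found where WT levels were higher at 27 °C, with a positive WT response for 1759 of 1786 features (98.5%). A response over 0.5 in size was seen in WT alone for 323 of the features on the positive side and 1116 on the negative side, against 176 and 44 in vil1 alone. These features were chosen by the same difference, so the split describes them and tests nothing. The distance between vil1 and WT was the larger at 22 °C for 799 of the 1072 features and for 1191 of the 1786. Over all features the median of vil1 minus WT was -0.12 at 27 °C and -0.16 at 22 °C. Shares of these patterns over all features were not counted, so the counts are not read as unusual.

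**Figure D1:**
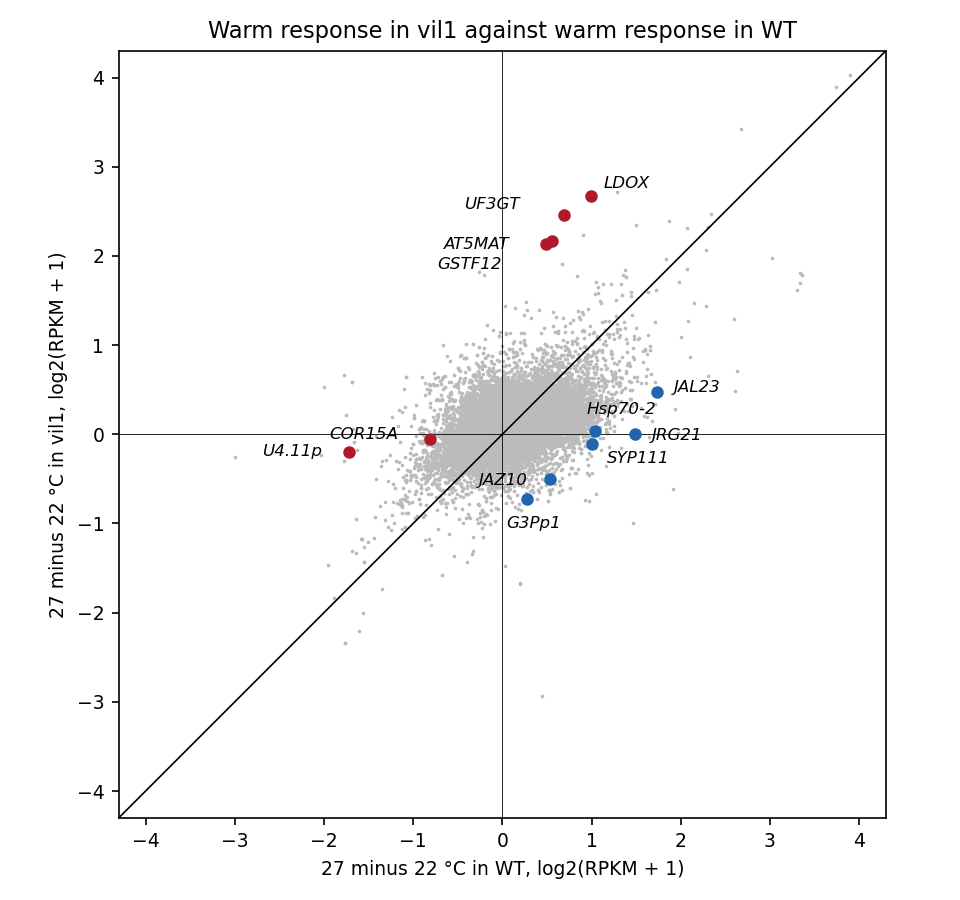
Warm response in vil1 (vertical axis) against warm response in WT (horizontal axis), each the mean log2(RPKM + 1) at 27 °C minus that at 22 °C, for all 31229 features tested (grey). The diagonal marks equal responses. Red points are the 6 genes with the smallest p among positive differences and blue points the 6 among negative differences, among genes with a symbol, 5 RPKM or more in a group and no identical copy; LDOX lies at 2.67 in vil1 and 1.00 in WT, and JRG21 at 0.01 in vil1 and 1.49 in WT, and none of them passed the adjusted test.

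Anthocyanins are the red and purple pigments of leaves and stems, and 4 genes of the last steps of their synthesis were among the 6 with the smallest p on the positive side, counting genes with a symbol, 5 RPKM or more in a group and no identical copy. LDOX, the oxygenase that forms anthocyanidins, had 52.8 and 49.98 RPKM in vil1 at 27 °C, 6.46 and 8.04 RPKM in vil1 at 22 °C, 43.9 and 37.2 in WT at 27 °C and 18.25 and 21.3 in WT at 22 °C. Both vil1 libraries at 27 °C were the highest and both vil1 libraries at 22 °C the lowest, with no overlap between groups. The difference was 1.67 (SE 0.19, unadjusted p = 1.75e-05, adjusted p = 0.245). UF3GT, which attaches a sugar to anthocyanins, had 24.9 and 23.2 RPKM in vil1 at 27 °C, 3.19 and 3.97 RPKM in vil1 at 22 °C, 20.8 and 17.1 in WT at 27 °C and 10.1 and 12.6 in WT at 22 °C. The order of the groups was the same, and the difference was 1.76 (SE 0.20, adjusted p = 0.245).

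AT5MAT, a malonyltransferase that acts on anthocyanins, had 20.5 and 19.5 RPKM in vil1 at 27 °C, 3.43 and 3.95 RPKM in vil1 at 22 °C, 11.7 and 11.3 in WT at 27 °C and 6.14 and 9.10 in WT at 22 °C. Its groups did not overlap either, and its difference was 1.61 (SE 0.22, adjusted p = 0.28). GSTF12, a glutathione transferase needed to carry anthocyanins to the vacuole, had 49.0 and 50.6 RPKM in vil1 at 27 °C, 9.60 and 11.6 RPKM in vil1 at 22 °C, 49.0 and 45.8 in WT at 27 °C and 26.3 and 42.7 in WT at 22 °C. At 27 °C its libraries of both genotypes lay together, while at 22 °C both vil1 libraries lay below both WT libraries. The difference was 1.65 (SE 0.28, adjusted p = 0.348). DFR, the reductase one step before LDOX, had 49.2 and 50.5 RPKM in vil1 at 27 °C, 5.50 and 8.27 RPKM in vil1 at 22 °C, 48.3 and 30.1 in WT at 27 °C and 18.3 and 12.3 in WT at 22 °C. Its difference was 1.43 (SE 0.37, adjusted p = 0.544).

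In LDOX, UF3GT and GSTF12 the genotypes were farther apart at 22 °C than at 27 °C. At 27 °C vil1 minus WT was 0.34 in LDOX, 0.33 in UF3GT and 0.07 in GSTF12, and passed for none of them. At 22 °C it was -1.33 in LDOX (adjusted p = 0.0106), -1.43 in UF3GT (adjusted p = 0.0106) and -1.58 in GSTF12 (adjusted p = 0.0217), all lower in vil1. Single libraries ended these calls. LDOX lost its call without replicate 1 of vil1 at 22 °C or replicate 2 of WT at 22 °C (adjusted p up to 0.0939). UF3GT lost its own without either vil1 library at 22 °C or replicate 2 of WT at 22 °C (up to 0.1), and GSTF12 without either vil1 library at 22 °C or replicate 2 of vil1 at 27 °C (up to 0.153). In AT5MAT the gaps were near equal in size, 0.75 at 27 °C and -0.86 at 22 °C, and in DFR they were 0.38 and -1.05, none of which passed. Over the whole list the median gap was 0.18 at 27 °C and -0.19 at 22 °C, against -0.12 and -0.16 over all features. The list median thus lay near that of all features at 22 °C and above it at 27 °C. Among the 27 flavonoid and anthocyanin genes, 12 had a positive and 0 a negative difference at an unadjusted p under 0.05, and 14 and 1 had warm responses that did not overlap. The list's median difference was 0.37, against 0.02 over all features, and it was 0.24 without replicate 2 of WT at 22 °C. Without replicate 1 of WT at 22 °C, LDOX and UF3GT passed at an adjusted p of 0.0342 and AT5MAT and GSTF12 at 0.0337. The voom fit called LDOX and UF3GT at 0.0129 and AT5MAT at 0.0468, and LDOX and UF3GT also passed among nuclear protein-coding genes alone, at 0.0434.

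**Figure D2:**
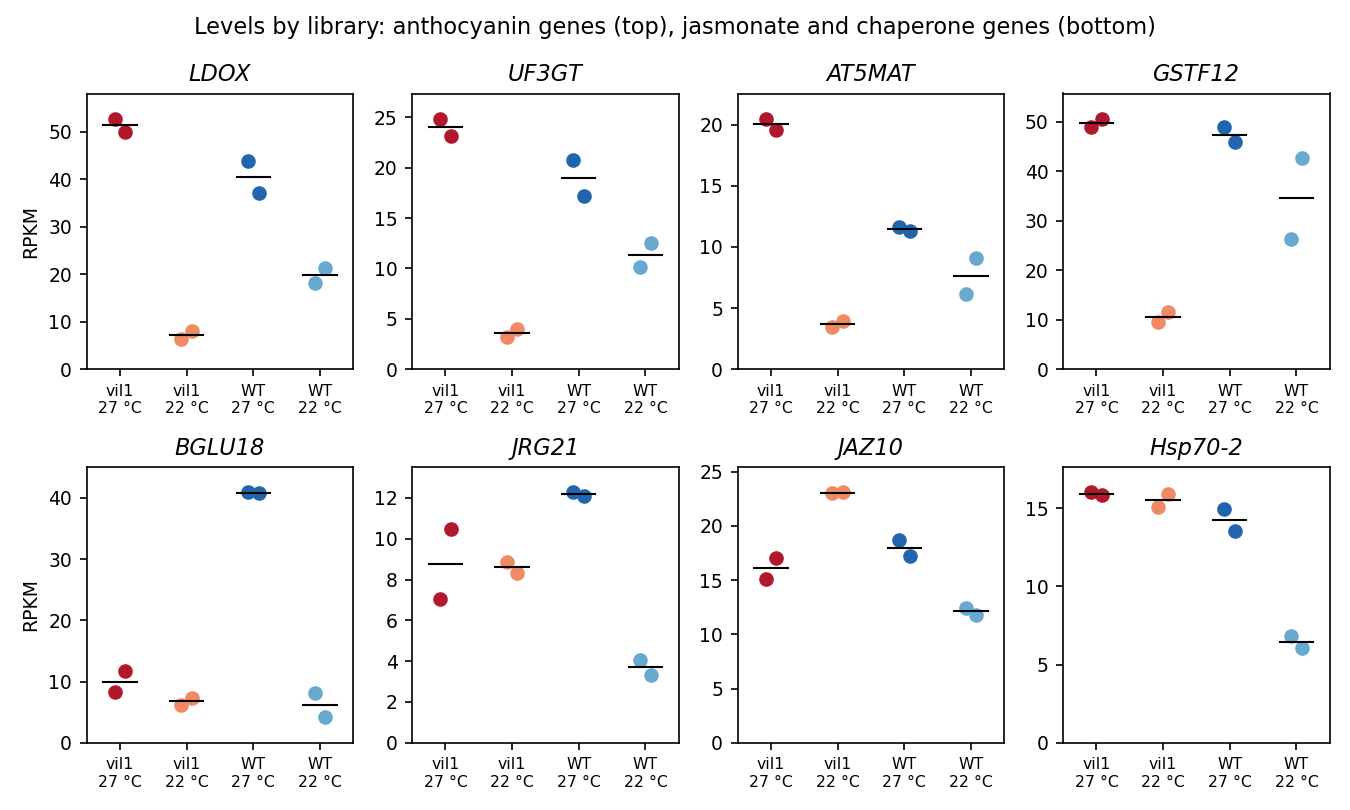
Levels of 8 genes in RPKM (vertical axes, from 0) in each library of vil1 at 27 and 22 °C and WT at 27 and 22 °C. Points are single libraries and lines are the means of 2. In the anthocyanin genes of the upper row vil1 at 22 °C is the lowest group, as in LDOX at 6.46 and 8.04 RPKM, and in the lower row WT at 22 °C is the lowest group, or overlaps with the lowest group in BGLU18.

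Jasmonate genes stood mostly on the negative side, with 22 of 31 below 0, against 14758 of 31229 over all features. Jasmonate is a wound and defence hormone whose response is held down by JAZ proteins. JAZ10, one of these repressors and itself induced by jasmonate, had 15.1 and 17.1 RPKM in vil1 at 27 °C, 23.0 and 23.1 RPKM in vil1 at 22 °C, 18.7 and 17.2 in WT at 27 °C and 12.4 and 11.8 in WT at 22 °C. Warm vil1 libraries lay below the cool ones, and warm WT libraries above the cool ones. The difference was -1.03 (SE 0.14, unadjusted p = 6.79e-05, adjusted p = 0.28). CYP94C1, which oxidises the active hormone, had 12.4 and 14.3 RPKM in vil1 at 27 °C, 15.3 and 15.5 RPKM in vil1 at 22 °C, 11.8 and 11.6 in WT at 27 °C and 7.53 and 8.81 in WT at 22 °C. It was highest in vil1 at 22 °C and lowest in WT at 22 °C, and its difference was -0.66 (SE 0.15, adjusted p = 0.544).

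JRG21, an oxygenase induced by jasmonate, had 7.06 and 10.5 RPKM in vil1 at 27 °C, 8.86 and 8.33 RPKM in vil1 at 22 °C, 12.3 and 12.1 in WT at 27 °C and 4.08 and 3.34 in WT at 22 °C. The vil1 libraries of both temperatures overlapped, while those of WT stood apart. Its difference was -1.49 (SE 0.23, adjusted p = 0.318). BGLU18, a beta-glucosidase of endoplasmic reticulum bodies, had 8.32 and 11.7 RPKM in vil1 at 27 °C, 6.25 and 7.32 RPKM in vil1 at 22 °C, 40.9 and 40.8 in WT at 27 °C and 8.06 and 4.22 in WT at 22 °C. WT at 27 °C alone stood high. The difference of -2.12 (SE 0.35, adjusted p = 0.318) came with a gap of -1.95 between vil1 and WT at 27 °C (adjusted p = 0.0204), a call that was lost without any 1 of the 4 libraries at 27 °C (adjusted p up to 0.132). VSP1, a vegetative storage protein, had 49.3 and 63.1 RPKM in vil1 at 27 °C, 24.6 and 26.8 RPKM in vil1 at 22 °C, 134 and 92.7 in WT at 27 °C and 28.6 and 25.4 in WT at 22 °C, and a difference of -0.92 (adjusted p = 0.544).

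Of the 31 jasmonate genes tested out of 32, 0 had a positive and 6 a negative difference at an unadjusted p under 0.05, and 0 and 9 had responses that did not overlap. The list's median difference was -0.27, with median responses of -0.03 in vil1 and 0.22 in WT, and the median was -0.10 without replicate 1 of WT at 27 °C and -0.40 without replicate 2 of WT at 27 °C. Without replicate 1 of WT at 22 °C, JAZ10 passed at an adjusted p of 0.0385, JRG21 at 0.0416 and BGLU18 at 0.0342, and the voom fit called the 3 at 0.0478. JAL23, a jacalin-related lectin outside the list, had 1.74 and 2.01 RPKM in vil1 at 27 °C, 1.01 and 1.12 RPKM in vil1 at 22 °C, 7.30 and 8.04 in WT at 27 °C and 1.65 and 1.55 in WT at 22 °C. As with BGLU18, WT at 27 °C stood far above the other groups. Its difference was -1.26 (SE 0.17, adjusted p = 0.28), and 0.0385 was its adjusted p without replicate 1 of WT at 22 °C.

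Chaperone genes gave a further set of negative differences, and 3 of those named here were higher in vil1 than in WT at 22 °C. HSP70, a chaperone gene induced by heat, had 145 and 155 RPKM in vil1 at 27 °C, 60.4 and 60.8 RPKM in vil1 at 22 °C, 123 and 121 in WT at 27 °C and 25.3 and 14.8 in WT at 22 °C. It was higher at 27 °C in both genotypes, and the groups at 22 °C were farther apart than those at 27 °C. The difference was -1.30 (SE 0.28, adjusted p = 0.542), with a gap between vil1 and WT of 0.29 at 27 °C and 1.59 at 22 °C (adjusted p = 0.0217). Hsp70-2, a related gene, had 16.0 and 15.8 RPKM in vil1 at 27 °C, 15.1 and 15.9 RPKM in vil1 at 22 °C, 14.9 and 13.5 in WT at 27 °C and 6.83 and 6.06 in WT at 22 °C. WT at 22 °C stood low and the other groups lay close together, for a difference of -0.997 (SE 0.14, adjusted p = 0.28) and a gap of 1.15 at 22 °C (adjusted p = 0.00547). Neither call held without replicate 1 or replicate 2 of vil1 at 22 °C, and that of HSP70 was lost without replicate 2 of vil1 at 27 °C as well. The adjusted p with 1 library left out was up to 0.158 in HSP70 and 0.0677 in Hsp70-2.

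AT3G09440, counted with the chaperones, had 70.6 and 74.6 RPKM in vil1 at 27 °C, 85.0 and 93.5 RPKM in vil1 at 22 °C, 66.7 and 55.8 in WT at 27 °C and 44.9 and 31.1 in WT at 22 °C. Its libraries were lower at 27 °C in vil1 and higher at 27 °C in WT, with a difference of -0.99 (SE 0.24, adjusted p = 0.544) and a gap of 1.23 at 22 °C (adjusted p = 0.0295), which passed in 3 of the 8 fits with 1 library left out (adjusted p up to 0.225) and was lost without replicate 2 of WT at 22 °C or any 1 vil1 library. ROF1, a prolyl isomerase that works with HSP90, had a difference of -0.85 (SE 0.26, adjusted p = 0.544). Among the 30 heat-shock and chaperone genes, 1 had a positive and 10 a negative difference at an unadjusted p under 0.05, and the same numbers had responses that did not overlap. The median difference was -0.16, with median responses of 0.83 in vil1 and 1.19 in WT. It was -0.001 without replicate 1 of vil1 at 27 °C, -0.08 without replicate 1 and -0.10 without replicate 2 of WT at 27 °C, -0.10 with the trend with length removed, and -0.38 among members with a mean of 5 RPKM or more. The small heat-shock protein gene HSP17.4, higher at 27 °C in both genotypes, had 61.4 and 75.7 RPKM in vil1 at 27 °C, 3.42 and 3.9 RPKM in vil1 at 22 °C, 41.0 and 80.2 in WT at 27 °C and 2.87 and 3.97 in WT at 22 °C. Its responses overlapped, with a difference of 0.16 and an interval of -0.74 to 1.06.

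Of the 12 heat-shock factors and heat-induced regulators, 3 had a negative difference at an unadjusted p under 0.05 and 0 a positive one. GolS1, the enzyme that makes the stress sugar galactinol, had a difference of -0.60 (SE 0.18), HSFA2, a heat-shock transcription factor, one of -0.44 (SE 0.13), and DREB2A, a drought and heat transcription factor, one of -0.42 (SE 0.17). All 3 had an adjusted p of 0.544, and the list's median difference was 0.03, or -0.13 without replicate 1 of WT at 27 °C. Without replicate 1 of WT at 22 °C, HSP70 passed at an adjusted p of 0.0232, Hsp70-2 and AT3G09440 at 0.0385 and GolS1 at 0.0469, and the voom fit of all libraries called Hsp70-2 at 0.0478. Reads of near-identical HSP70 and HSP90 genes may have been shared between copies.

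**Figure D3:**
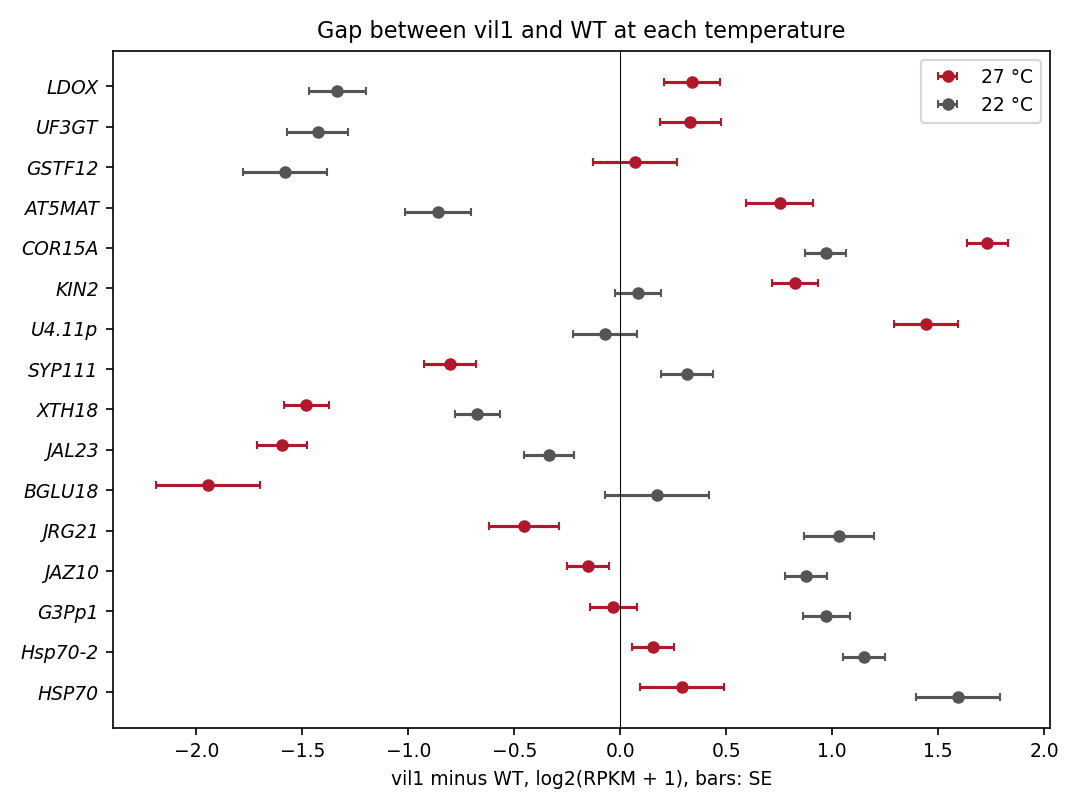
Gap between vil1 and WT (vil1 minus WT, log2(RPKM + 1), horizontal axis) at 27 °C (red) and 22 °C (grey) for 16 genes named in the text, with bars for the SE of the fit. In LDOX the gap is 0.34 at 27 °C and -1.33 at 22 °C, in HSP70 0.29 and 1.59, and in BGLU18 -1.95 and 0.17. The temperature with the larger gap thus differs between these genes. In AT5MAT the gaps are near equal in size, and COR15A has gaps of 1.73 and 0.97 that both passed.

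Growth genes of the SAUR family, short genes whose small proteins promote cell expansion downstream of auxin, had positive differences. SAUR63 had 35.3 and 33.1 RPKM in vil1 at 27 °C, 36.2 and 33.5 RPKM in vil1 at 22 °C, 22.6 and 28.1 in WT at 27 °C and 35.8 and 45.1 in WT at 22 °C. WT at 27 °C was the lowest group, and the groups at 22 °C overlapped. The difference was 0.63 (SE 0.20, adjusted p = 0.544). Another member, AT1G29500, had 13.8 and 13.0 RPKM in vil1 at 27 °C, 14.2 and 13.1 RPKM in vil1 at 22 °C, 8.29 and 10.1 in WT at 27 °C and 16.4 and 15.0 in WT at 22 °C. Again WT at 27 °C was lowest, and the difference was 0.70 (SE 0.16, adjusted p = 0.544). SAUR68 had a difference of 0.59 (SE 0.17) and SAUR23 one of 0.49 (SE 0.19).

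Among the 20 SAUR genes, 10 had a positive and 0 a negative difference at an unadjusted p under 0.05, and 11 and 0 had responses that did not overlap. Their median difference was 0.44, with median responses of -0.02 in vil1 and -0.45 in WT. Since these genes are short, the trend with gene length moved beside the result, and with it removed the median was 0.30; under quantile normalization it was 0.48. Members of the family are alike in sequence, and reads may have been shared between them. Neighbouring auxin genes did not follow one direction: of the 20 Aux/IAA, GH3 and LBD genes, 1 had a positive and 2 a negative difference at an unadjusted p under 0.05, with a median of -0.09, or -0.19 with the trend with length removed. The median lay between -0.20 without replicate 1 of vil1 at 27 °C and -0.02 without replicate 2 of vil1 at 27 °C. The Aux/IAA repressor gene AXR3 had a difference of 0.51 (SE 0.17). DFL1 and WES1, whose enzymes couple auxin to amino acids, had -0.995 (SE 0.33) and -0.42 (SE 0.14), all with an adjusted p of 0.544.

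Regulators of warm and shade growth had differences on both sides of 0, from -0.38 to 0.42. None of the 18 had an unadjusted p under 0.05, 1 and 4 had responses that did not overlap on the positive and the negative side, and the median was -0.02. It was -0.12 without replicate 1 of vil1 at 27 °C, -0.04 with the trend with length removed and -0.17 among members with a mean of 5 RPKM or more. PIF4 had 35.8 and 36.5 RPKM in vil1 at 27 °C, 42.7 and 42.6 RPKM in vil1 at 22 °C, 33.2 and 31.1 in WT at 27 °C and 37.1 and 26.0 in WT at 22 °C. Both WT groups overlapped, and its difference was -0.28 with an interval of -0.76 to 0.20. The auxin synthesis gene YUC8 had a difference of -0.21 (interval -0.55 to 0.13), the shade-induced homeobox gene HB-2 one of -0.38 (-0.77 to 0.02), and the auxin-induced genes IAA19 and IAA29 had 0.20 (-0.23 to 0.63) and -0.08 (-0.52 to 0.37). These intervals leave room for differences of 0.5 or more in PIF4, YUC8, HB-2, IAA19 and IAA29.

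Wall-loosening genes split. XTH18, a xyloglucan-remodelling enzyme, had 24.7 and 24.4 RPKM in vil1 at 27 °C, 9.66 and 9.54 RPKM in vil1 at 22 °C, 64.0 and 77.3 in WT at 27 °C and 15.6 and 16.2 in WT at 22 °C. Both genotypes were higher at 27 °C, WT by more, for a difference of -0.81 (SE 0.15, adjusted p = 0.377). Its relative XTH9 had a difference of -0.53 (SE 0.16), and the expansins EXPA11 and EXPA5 had 0.57 (SE 0.20) and 0.52 (SE 0.19). Of 21 wall genes, 2 were positive and 3 negative at an unadjusted p under 0.05. Among 29 gibberellin and brassinosteroid genes tested out of 30, 1 was positive and 0 negative, the positive one being the brassinosteroid synthesis gene CPD (0.46, SE 0.16). Among the 6 RADIALIS-like MYB genes, 1 was positive and 0 negative, namely RL5 (0.57, SE 0.23). RL4, which was far lower at 27 °C in both genotypes, had a difference of 0.32 (interval -0.03 to 0.66) and RL6 one of 0.27 (-0.15 to 0.69).

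Light-harvesting genes had negative warm responses in both genotypes, with list medians of -0.42 in vil1 and -0.58 in WT. LHCB6, an antenna protein of photosystem II, had 1611 and 1567 RPKM in vil1 at 27 °C, 2065 and 1928 RPKM in vil1 at 22 °C, 1403 and 1532 in WT at 27 °C and 2569 and 2681 in WT at 22 °C. WT at 22 °C was the highest group and WT at 27 °C the lowest. The difference was 0.51 (SE 0.15, adjusted p = 0.544). LHB1B1, a major antenna gene, had a difference of 0.50 (SE 0.15), CAB3 one of 0.39 (SE 0.16) and LHCB4.2 one of 0.35 (SE 0.13). Among 23 antenna and Rubisco genes, 6 had a positive and 0 a negative difference at an unadjusted p under 0.05, 15 and 1 had responses that did not overlap, and the median was 0.24. It was 0.15 with the trend with length removed, and quantile normalization turned it to -0.09 and the difference of CAB3 to -0.22. Near-identical copies in these families may share reads.

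Chlorophyll synthesis genes lay on the other side. POR C, which reduces protochlorophyllide in the light, had 65.8 and 79.6 RPKM in vil1 at 27 °C, 53.3 and 57.9 RPKM in vil1 at 22 °C, 89.2 and 73.8 in WT at 27 °C and 44.5 and 25.7 in WT at 22 °C. The replicates of WT at 22 °C were far apart and both lay below all other libraries. Its difference was -0.86 (SE 0.32, adjusted p = 0.544). PCB2, the divinyl reductase of the pathway, had -0.82 (SE 0.31), and GSA1, which acts in its first steps, -0.40 (SE 0.15). Of 17 chlorophyll genes, 0 were positive and 3 negative at an unadjusted p under 0.05, with 2 and 7 not overlapping and a median of -0.40. That median rested on the WT libraries at 22 °C, being -0.12 without replicate 2 and -0.54 without replicate 1. The difference of POR C was -0.48 without replicate 2 of that group and -1.25 without replicate 1, where it passed at an adjusted p of 0.0416. PCB2 likewise had -0.43 without replicate 2 and -1.21 without replicate 1 (adjusted p = 0.0385).

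Several clock genes of the morning and midday had negative differences. PRR5, a repressor in the clock, had 14.7 and 15.9 RPKM in vil1 at 27 °C, 15.8 and 17.2 RPKM in vil1 at 22 °C, 16.3 and 15.8 in WT at 27 °C and 11.9 and 10.5 in WT at 22 °C. WT at 22 °C was the lowest group and the others overlapped, for a difference of -0.59 (SE 0.14, adjusted p = 0.544). PRR9 had 5.58 and 5.92 RPKM in vil1 at 27 °C, 6.32 and 7.02 RPKM in vil1 at 22 °C, 10.6 and 9.25 in WT at 27 °C and 7.57 and 4.2 in WT at 22 °C, and a difference of -0.89 (SE 0.29). The morning transcription factor CCA1 had -0.80 (SE 0.28) and its relative EPR1 -0.70 (SE 0.26). Of 30 clock genes, 0 were positive and 7 negative at an unadjusted p under 0.05, and 2 and 10 did not overlap. Their median was -0.08, and 0.02 with the trend with length removed; it was -0.04 without replicate 2 of vil1 at 22 °C. With replicate 1 of WT at 22 °C left out, PRR9 and EPR1 passed at an adjusted p of 0.0385.

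Several cold-response genes had positive differences, and COR15A and its neighbour COR15B were higher in vil1 than in WT at both temperatures. COR15A, whose product protects chloroplast membranes in the cold, had 73.3 and 78.6 RPKM in vil1 at 27 °C, 75.6 and 82.0 RPKM in vil1 at 22 °C, 22.6 and 21.7 in WT at 27 °C and 37.8 and 41.7 in WT at 22 °C. The vil1 groups overlapped, while both WT libraries at 27 °C lay below those at 22 °C. The difference was 0.76 (SE 0.14, adjusted p = 0.377), and the gap between vil1 and WT was 1.73 at 27 °C (adjusted p = 0.000425) and 0.97 at 22 °C (adjusted p = 0.0106). The gap at 27 °C passed with any 1 library left out, and that at 22 °C was lost without either vil1 library at 22 °C (adjusted p up to 0.129). KIN2, a small cold-induced protein, had 378 and 371 RPKM in vil1 at 27 °C, 386 and 363 RPKM in vil1 at 22 °C, 217 and 206 in WT at 27 °C and 324 and 386 in WT at 22 °C. Here WT at 27 °C alone stood apart, for a difference of 0.74 (SE 0.15, adjusted p = 0.49).

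COR15B had a difference of 0.53 (SE 0.16), with gaps of 2.02 at 27 °C (adjusted p = 0.000425) and 1.49 at 22 °C (adjusted p = 0.00313), and the dehydrin gene LTI30 one of 0.57 (SE 0.17). Of 15 cold, dehydration and abscisic acid genes, 6 were positive and 0 negative at an unadjusted p under 0.05, 7 and 2 did not overlap, and the median was 0.23. It was 0.14 with the trend with length removed and 0.36 without replicate 2 of WT at 22 °C. With replicate 1 of WT at 22 °C left out, COR15A passed at an adjusted p of 0.0387 and KIN2 at 0.0385. Among 30 rapid stress and touch regulators, 3 were positive and 1 negative, with a median of 0.13, or 0.03 with the trend with length removed. Leaving out replicate 1 of WT at 27 °C gave 0.04 and replicate 2 of that group 0.24, replicate 1 of vil1 at 27 °C 0.06 and replicate 2 of that group 0.21, and replicate 1 of WT at 22 °C 0.20. The zinc-finger gene ZAT6 had 0.81 (SE 0.24), YLS9, a gene of defence and senescence, 0.69 (SE 0.20), and the ethylene response factors ERF4 and ERF2 0.38 (SE 0.16) and -0.54 (SE 0.21). Among 23 salicylic acid defence genes tested out of 25, 2 were positive and 1 negative, with a median of 0.12. It was -0.01 without replicate 1 and 0.23 without replicate 2 of vil1 at 27 °C, 0.07 without replicate 2 of WT at 22 °C, and -0.14 among members with a mean of 5 RPKM or more. They were PCC1 (1.48, SE 0.59), the glucanase gene BGL2 (0.92, SE 0.30) and the transcription factor gene WRKY18 (-0.80, SE 0.34).

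**Figure D4:**
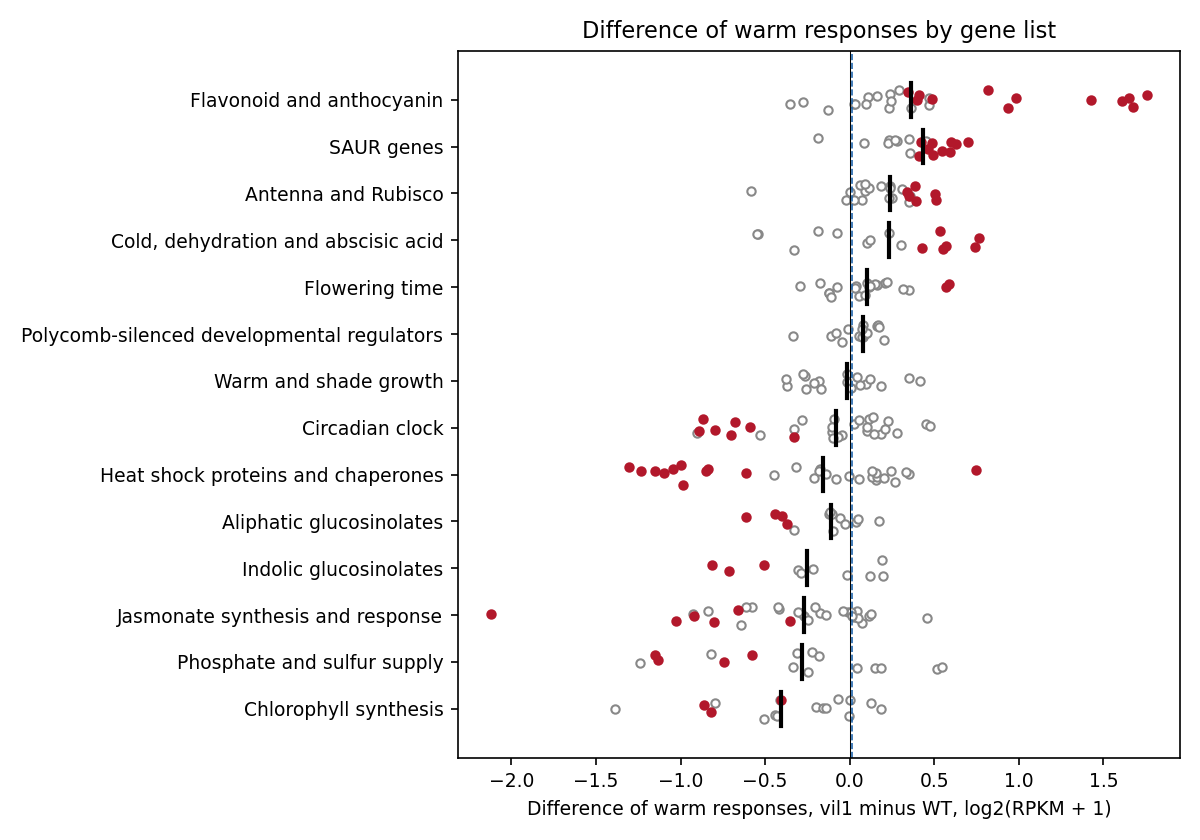
Difference of warm responses (vil1 minus WT, log2(RPKM + 1), horizontal axis) for the tested genes of 14 lists, 1 row a list. Red points have an unadjusted p under 0.05, open points do not, black bars are list medians and the dashed line is the median of all features at 0.02. The medians run between 0.44 in the SAUR genes and -0.40 in the chlorophyll genes.

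Glucosinolates, the mustard-oil defence compounds, have separate aliphatic and indolic branches. Of 14 aliphatic genes tested out of 15, 0 were positive and 4 negative at an unadjusted p under 0.05, with a median of -0.11. It was -0.20 without replicate 2 of WT at 22 °C, -0.19 without replicate 2 of WT at 27 °C, -0.18 without replicate 1 of vil1 at 27 °C and -0.04 without replicate 2 of vil1 at 27 °C. The negative ones were the branch regulator MYB28 (-0.40, SE 0.17) and the core enzymes SOT17 (-0.44, SE 0.14), UGT74B1 (-0.61, SE 0.22) and SUR1 (-0.37, SE 0.14). Of 10 indolic genes, 0 were positive and 3 negative, with a median of -0.25, or -0.13 without replicate 2 and -0.38 without replicate 1 of WT at 22 °C. SOT16, a sulfotransferase, had 30.6 and 33.1 RPKM in vil1 at 27 °C, 26.3 and 27.3 RPKM in vil1 at 22 °C, 48.9 and 35.4 in WT at 27 °C and 22.2 and 17.0 in WT at 22 °C. Its WT groups were farther apart than its vil1 groups, for a difference of -0.82 (SE 0.24, adjusted p = 0.544). CYP83B1, the entry enzyme of the indolic branch, had -0.71 (SE 0.17) and the glutathione transferase GSTF9 -0.51 (SE 0.22).

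Sulfate and phosphate supply genes lay on the same side. APR3, which reduces activated sulfate and so feeds both cysteine and glucosinolate synthesis, had 91.3 and 112 RPKM in vil1 at 27 °C, 94.7 and 105 RPKM in vil1 at 22 °C, 190 and 137 in WT at 27 °C and 102 and 49.1 in WT at 22 °C. The replicates of each WT group were far apart, and those of both vil1 groups overlapped. Its difference was -1.15 (SE 0.43), and its relatives APR1 and APR2 had -1.13 (SE 0.46) and -0.74 (SE 0.25). G3Pp1, a glycerol phosphate permease gene induced by phosphate starvation and not a member of the list, had 14.4 and 14.8 RPKM in vil1 at 27 °C, 25.4 and 24.2 RPKM in vil1 at 22 °C, 15.6 and 14.3 in WT at 27 °C and 13.3 and 11.04 in WT at 22 °C. Here vil1 at 22 °C alone stood high. The difference was -1.01 (SE 0.16, adjusted p = 0.318), with a gap of 0.97 at 22 °C (adjusted p = 0.0145), which was lost without replicate 2 of WT at 22 °C and without either vil1 library at 22 °C (adjusted p up to 0.147).

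Of 16 phosphate and sulfur genes, 0 were positive and 4 negative at an unadjusted p under 0.05, and the median was -0.28, or -0.19 without replicate 2 of WT at 22 °C. The 4 were APR1, APR2, APR3 and SQD2; the sulfolipid synthesis gene SQD2 had -0.58 (SE 0.18). Without replicate 1 of WT at 22 °C, APR3 passed at an adjusted p of 0.0416, APR2 and G3Pp1 at 0.0342 and SQD2 at 0.0387. Among 17 iron genes, 2 were positive and 1 negative, the iron-storage ferritins FER1 (0.46, SE 0.16) and FER4 (0.43, SE 0.15) and the ferric reductase FRO3 (-0.41, SE 0.17). Among 19 sugar starvation and senescence genes, 0 were positive and 3 negative, with a median of 0.00, or -0.13 with the trend with length removed and -0.10 without replicate 2 of WT at 22 °C. SAG13, a senescence-associated gene, had -1.24 (SE 0.23, adjusted p = 0.377) and the plastid sugar-phosphate carrier GPT2 -0.49 (SE 0.13).

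Genes of the Polycomb machinery itself had small differences. Of the 9 VEL and PRC2 genes tested out of 12, 0 were positive and 1 negative at an unadjusted p under 0.05, with a median of -0.11, or 0.01 with the trend with length removed. Leaving out single libraries gave medians of -0.17 (without replicate 1 of vil1 at 27 °C) to -0.06 (without replicate 2 of WT at 27 °C). The negative one was VEL1, a relative of VIL1, with 14.3 and 15.6 RPKM in vil1 at 27 °C, 13.1 and 13.5 RPKM in vil1 at 22 °C, 17.7 and 15.2 in WT at 27 °C and 10.7 and 7.57 in WT at 22 °C. WT at 22 °C was the lowest group, and the difference was -0.64 (SE 0.22, adjusted p = 0.544), with an adjusted p of 0.0473 without replicate 1 of WT at 22 °C. Of 14 PRC1, reader and demethylase genes none reached an unadjusted p under 0.05, and 0 and 4 did not overlap. Of 10 SWR1 and H2A.Z genes, 1 was positive and 0 negative, the H2A.Z gene HTA9 (0.37, SE 0.15).

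Developmental regulators silenced by Polycomb, of which 16 of 25 were high enough to test, held 0 with an unadjusted p under 0.05, and their median was 0.08 with a range of -0.34 to 0.20. Without replicate 2 of WT at 22 °C the median was -0.03, and without replicate 2 of WT at 27 °C it was 0.15. The other members stayed under the filter on low values, so nothing is said of them. The homeobox gene KNAT1 had a difference of -0.34 (interval -0.71 to 0.04), and the floral gene PI had 0.20 (-0.26 to 0.67), with a gap between vil1 and WT of -0.91 at 22 °C (adjusted p = 0.0457), which was lost without replicate 2 of WT at 22 °C or any 1 vil1 library (adjusted p up to 0.349). FLC had 5.09 and 4.97 RPKM in vil1 at 27 °C, 4.69 and 4.72 RPKM in vil1 at 22 °C, 4.16 and 4.90 in WT at 27 °C and 4.47 and 4.75 in WT at 22 °C. All groups lay close together, with a difference of 0.10 and an interval of -0.24 to 0.45. FT, the mobile flowering signal, was under 1 RPKM in every library and was not tested. Among 21 flowering genes tested out of 24, 2 were positive and 0 negative, and both are repressors of FT. TEM1 had 75.3 and 67.8 RPKM in vil1 at 27 °C, 86.7 and 78.4 RPKM in vil1 at 22 °C, 64.2 and 77.7 in WT at 27 °C and 109 and 138 in WT at 22 °C, for a difference of 0.59 (SE 0.20). WT at 22 °C stood above the rest. RAV2 had a difference of 0.57 (SE 0.18), and both had an adjusted p of 0.544.

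Whole seedlings hold many cell types, and in bulk samples fewer cells of a type and less RNA per cell cannot be told apart. Markers of dividing cells summed to 35.0 and 31.9 RPKM in vil1 at 27 °C, 32.3 and 32.9 RPKM in vil1 at 22 °C, 47.4 and 43.7 in WT at 27 °C and 32.2 and 36.1 in WT at 22 °C. WT at 27 °C stood above all other libraries. Of the 14 markers, 0 had a positive and 2 a negative difference at an unadjusted p under 0.05, and 0 and 5 did not overlap. Differences were above 0 in 4 and below 0 in 10, with a median of -0.06, or -0.03 with the trend with length removed. That median was -0.15 without replicate 1 and 0.05 without replicate 2 of vil1 at 27 °C, so the sum does not stand for a change of like size in all markers. SYP111, a syntaxin of the growing cell plate, had 4.67 and 5.49 RPKM in vil1 at 27 °C, 5.41 and 5.69 RPKM in vil1 at 22 °C, 10.6 and 8.66 in WT at 27 °C and 4.47 and 4.06 in WT at 22 °C. The vil1 groups overlapped and WT at 27 °C was far above, for a difference of -1.12 (SE 0.17, adjusted p = 0.318), and 0.0416 was its adjusted p without replicate 1 of WT at 22 °C. CDC20.1, an activator of mitotic exit, had -0.90 (SE 0.18, adjusted p = 0.418). Their part in the differences of other genes was not tested.

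Root markers summed to 32.2 to 36.6 RPKM in vil1 at 27 °C, 29.9 to 30.7 in vil1 at 22 °C, 30.5 to 35.0 in WT at 27 °C and 31.7 to 41.7 in WT at 22 °C. Of the 9 tested out of 10, 1 was positive and 0 negative, the nitrate transporter gene NRT2:1 (0.81, SE 0.22). Seed storage markers summed to 12.1 to 14.3 RPKM in the vil1 libraries and 14.65 to 17.82 in the WT libraries, with none of 11 at an unadjusted p under 0.05. No marker of the dividing, root or seed lists was at 0 in a whole group. U4.11p, a small nuclear RNA locus that lies within the bounds of AT1G68400, had 4.40 and 4.44 RPKM in vil1 at 27 °C, 5.78 and 4.73 RPKM in vil1 at 22 °C, 1.097 and 0.891 in WT at 27 °C and 4.75 and 6.45 in WT at 22 °C. Only WT at 27 °C stood low, for a difference of 1.52 (SE 0.21, adjusted p = 0.28), or 1.70 without replicate 1 of WT at 22 °C. The voom fit of all libraries gave 2.12 and did not call it (adjusted p = 0.374). Reads of that locus and of AT1G68400 cannot be told apart, since the counting is not stated to use strand.

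AT1G19960, a protein-coding gene without a symbol in the reference, had 4.41 and 3.58 RPKM in vil1 at 27 °C, 3.51 and 3.20 RPKM in vil1 at 22 °C, 3.48 and 3.82 in WT at 27 °C and 9.51 and 10.4 in WT at 22 °C. WT at 22 °C stood far above the other groups, which lay between 3.20 and 4.41 RPKM. The difference was 1.43 (SE 0.17, unadjusted p = 2.35e-05, adjusted p = 0.245), with a gap of -1.33 between vil1 and WT at 22 °C (adjusted p = 0.00654), a call lost without replicate 2 of WT at 22 °C or either vil1 library at 22 °C (adjusted p up to 0.0667). It passed among nuclear protein-coding genes alone at an adjusted p of 0.0434, and without replicate 1 of WT at 22 °C at 0.0385.

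The design text's question was addressed by choosing genes in WT and measuring them elsewhere. Genes at 5 RPKM or more with a log2 change of 1 or more in size were picked from a single pair of WT libraries, one per temperature, and their response was measured in the remaining WT pair and in vil1, for each of the 4 possible pairs. Of the genes chosen as lower at 27 °C, 52 to 255 in number, the median response was -0.29 to -0.78 in vil1 and -0.58 to -1.20 in the WT libraries not used to choose them. In each of the 4 ways the vil1 median was nearer 0, the median difference being 0.22 to 0.40, against 0.02 over all features. The vil1 response lay above the held-out WT response for 73.2 to 84.6 percent of these genes. That count goes by sign, so it includes vil1 responses past 0 of any size. The vil1 response was still negative for 88 of 97, 197 of 255, 46 of 52 and 119 of 168 genes.

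Genes chosen as higher at 27 °C, 215 to 1077 in number, had median responses of 0.24 to 0.81 in vil1 and 0.43 to 0.98 in the held-out WT libraries. The median difference was -0.10 to -0.51, and the vil1 response lay below the held-out WT response for 56.3 to 85.2 percent, again by sign. The 4 ways share libraries and are not independent, and no test was made. The WT medians moved with the library used: for genes chosen as lower they were -1.003 and -1.203 where replicate 2 of WT at 22 °C was held out, and -0.58 and -0.68 where replicate 1 was.

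The same choice was then made in vil1, after the values above had been seen, because genes chosen for a large response in one genotype can lie nearer 0 in the other whichever genotype is used. Genes chosen as higher at 27 °C in a vil1 pair, 139 to 192 in number, had medians of 1.05 to 1.18 in the vil1 libraries not used to choose them and 0.85 to 1.101 in WT, so here WT lay nearer 0 in all 4 ways. Median differences were 0.02 to 0.23. Genes chosen as lower, 35 to 79 in number, had median differences of -0.28 to 0.50. WT medians were nearer 0 in 3 of the 4 ways, and in the fourth, with 79 genes, the held-out vil1 median was 0.20 against -0.27 in WT. Gene by gene and again by sign, the WT response lay above the held-out vil1 response for 65.7, 43.1 and 43.2 percent in those 3 ways and 19.0 percent in the fourth. For genes chosen as higher the WT response lay below the held-out vil1 response for 50.3 to 66.7 percent. Among genes chosen as lower, the 4 ways did not go in one direction. A weaker response in vil1 thus cannot be told apart from the way the genes were chosen.

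**Figure D5:**
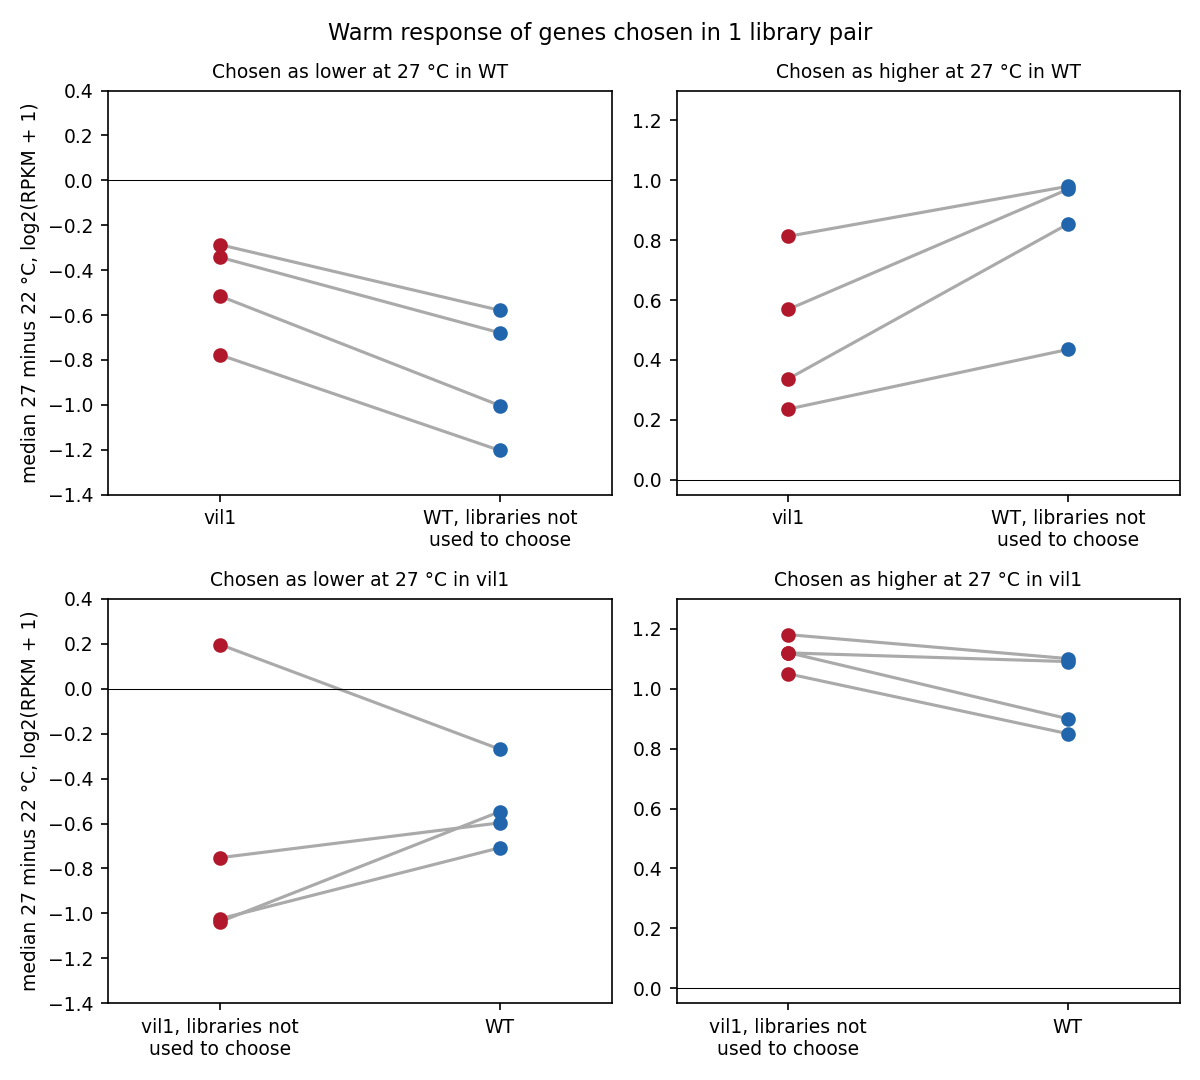
Median warm response (27 minus 22 °C, log2(RPKM + 1), vertical axes) of genes chosen as lower (left) or higher (right) at 27 °C, in 1 WT library pair (upper row) or in 1 vil1 pair (lower row). Red points are vil1 and blue points WT, in the genotype used to choose only the libraries left over, with a line for each of the 4 ways of choosing. In the upper row every vil1 median lies nearer 0 than its WT partner, the closest pair being 0.81 in vil1 and 0.98 in WT; at the lower right every WT median lies nearer 0 than its vil1 partner.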

How the data were processed

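The authors deposited 1 table of RPKM values for 34262 features, scaled to depth. Per the submitters' processing notes the tools were HISAT2, Bowtie2, edgeR, bedtools, SAMtools and FastQC and the build TAIR10, without versions or roles. Multiplied by the gene's span in the RefSeq annotation (TAIR10.1, used for symbols and lengths alone), the deposited values became whole reads for 32532 of 32548 features with a length (tolerance 0.02 reads), so RPKM was taken per whole gene span, introns included. Values of 1392 features are identical to another's, and 23 of the 92 named genes overlap another locus; their reads cannot be told apart where strand was not used.

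From these values, log2(RPKM + 1) of the 8 libraries was fitted for each group in limma 3.58.1 (R 4.3.3), with variances following the mean level, over features that reached 1 RPKM in 2 or more libraries. The threshold was a Benjamini-Hochberg adjusted p under 0.05. Residual degrees of freedom were 4, so precision is limited. The other RNA-seq and the ChIP-seq samples were not used here, except that all 12 RNA-seq libraries entered 1 alternative. Scripts were tested on simulated data.

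Members, 29 gene lists and tests were chosen with earlier results of these data known. Named are VRN5 and ARP6, the 6 smallest p-values in each direction among genes with a symbol, 5 RPKM in a group and no identical copy, up to 4 genes a list, a set of thermomorphogenesis, heat and pigment genes, and genes called by an alternative. Counts at an unadjusted p under 0.05 and of responses that do not overlap were added after no gene had passed. Alternatives were the pseudocount (0.1 or 5), the filter, quantile normalization, median centring, length trend removal, no variance trend, all 12 libraries, the replicate block, voom, a minimum change and each library left out. Added after seeing the data were nuclear protein-coding genes alone (25300), library weights, voom without replicate 1 of WT at 22 °C, the choice of genes in vil1 and gaps between genotypes with each library left out.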

Additional observations from a re-analysis of the deposited data

Results flagged for a closer look

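In 13 named genes every pairing of a warm with a cool vil1 library moved one way and every such pairing of WT the opposite way. The same pattern was seen in 995 of all 31229 features tested (3.19%), 515 of them with a positive and 480 with a negative difference. Many of the 13 were named for a small p of this difference, so their number is not read against that share. None of their differences passed the adjusted test on all 8 libraries. The genes were lower at 27 °C in vil1 and higher at 27 °C in WT in 9 cases: the jasmonate genes JAZ10 (difference -1.03) and CYP94C1 (-0.66), the chaperone-list gene AT3G09440 (-0.99), the phosphate-starvation gene G3Pp1 (-1.01), the senescence gene SAG13 (-1.24), the wall gene XTH9 (-0.53), the clock genes PRR9 (-0.89) and EPR1 (-0.70), and the sulfate gene APR2 (-0.74). They were higher at 27 °C in vil1 and lower at 27 °C in WT in 4 cases: SAUR23 (0.49), the expansin EXPA5 (0.52), YLS9 (0.69) and AT1G19960 (1.43). JAZ10, AT3G09440, G3Pp1, PRR9, EPR1, APR2 and AT1G19960 passed without replicate 1 of WT at 22 °C.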

How the results depend on the processing

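The count of 0 calls in each direction held under the other pseudocounts, filters, quantile normalization, median centring, removal of the length trend, no variance trend and all 12 libraries. A minimum change can only remove calls, so its 0 was fixed in advance. Library weights also gave 0 calls. They were equal for the 2 libraries of a group, 0.473 for both of WT at 22 °C, and so could not weigh a single library. Voom on recovered reads called 3 higher and 4 lower, nuclear protein-coding genes alone 3 higher and 0 lower, and voom without replicate 1 of WT at 22 °C 648 higher and 1606 lower. Leaving out each library in turn gave 0 to 155 higher and 0 to 515 lower, the highest counts without replicate 1 of WT at 22 °C; the cause was not tested. With the replicate number as a block there were 0 calls higher and 0 lower, and 919 and 1441 at an unadjusted p under 0.05. Same-numbered libraries had correlations of deviations of -0.252 to 0.223, the highest being that of the WT groups. Those numbered 1 in WT had 75.0 M reads at both temperatures, and those numbered 2 had 61.6 M at 22 °C and 61.5 M at 27 °C. Whether the numbers pair the WT libraries was not tested. With all 12 libraries 1402 features were positive and 2478 negative at an unadjusted p under 0.05.

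Of 2102 values of named genes under the alternatives, 1994 were counted as unchanged, 97 newly passed and 1 reversed, namely CAB3 under quantile normalization, at -0.22. For genes with a test, unchanged means the same direction and side of the threshold. For genes named without a test it means a move under 1 SE, with the sign not checked, and 10 of their values moved by more. Of 666 list medians, 8 moved by more than the list's median SE. Many of these medians and directions could not move. No filter, no variance trend, all 12 libraries and the replicate block left each difference as it was. So did a minimum change, library weights and nuclear protein-coding genes alone. Of the gaps between vil1 and WT that passed in named genes, those of COR15A, JAL23 and XTH18 at 27 °C and COR15B at both temperatures passed with any 1 library left out, and every other one was lost in at least 1 such fit. The mean median differences of genes chosen in WT, 0.32 for the lower and -0.29 for the higher ones, kept their sign. With 2 libraries a group the median SE of a difference was 0.20, which sets what this depth of replication can resolve.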
